A study of Mus musculus with 2 samples.

Results

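Mitochondrial carriers of the Slc25a family and the 3 Vdac porins were examined in long-read RNA sequencing of mouse gastrocnemius, a calf muscle. Members were the annotated genes named Slc25a followed by digits only, together with Vdac1, Vdac2 and Vdac3. The GENCODE M21 annotation holds 50 such genes, 47 of them Slc25a genes, and 41 had at least 1 read, out of 15508 annotated genes with a read. The animals were males of B6CASTF1/J, a hybrid of the strains C57BL/6J and CAST/EiJ, aged 36 days. All samples form 1 group with 2 biological replicates, made from 2 µg of RNA each and named as males 03 (replicate 1) and 04 (replicate 2) with 1 shared donor entry. There is no treated or mutant group, so what can be compared is 1 library with the other. Any p-value below compares these 2 libraries and no condition.

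The inner mitochondrial membrane lets few metabolites through, and Slc25 carriers exchange them across it one kind at a time: ADP for ATP, phosphate, amino acids, carboxylates, cofactors and iron. The outer membrane is crossed through the voltage-dependent anion channels encoded by the Vdac genes. In working muscle the ADP/ATP carrier and the phosphate carrier together supply ATP synthase with its substrates and hand its product to the cytosol.

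Replicate 1 held 1036455 reads in annotated genes and replicate 2 held 1374068, and CPM are counts per 1e6 of these reads. A gene with no read could have a level of up to 2.89 CPM in the first library and 2.18 CPM in the second (3 reads). Each read belongs to a transcript model. Models that follow an annotated transcript, newly combine its splice sites or hold a new junction are called complete-type here, and the remaining models are incomplete matches or genomic, the class of models that overlap a gene and fall in no other. Fast-fibre markers fit the labelled tissue, with all 5 (Ckm, Acta1, Mylpf, Myh4 and Tnnc2) detected and a summed level of 224023 CPM in replicate 1 and 226226 CPM in replicate 2, while of the heart markers Nppa and Myl7 had 0 reads and Myh6 had 1 (in replicate 1), and of the brown-fat markers Ucp1 had 0 and Cidea had 2 in replicate 1 and 8 in replicate 2. The libraries differed in other tissue markers. Fibroblast markers reached 3556 CPM in sum in replicate 1, against 931 in replicate 2 (3 of 4 called higher in replicate 1), and Schwann cell markers 1462 and 504 CPM (2 of 3). Of all tested genes, 12.9% were called in that direction. Adipocyte markers reached 140 CPM in sum in replicate 1, against 379 in replicate 2 (3 of 4 called higher in replicate 2), and slow-fibre markers 219 and 450 CPM (2 of 4). Of all tested genes, 5.76% were called in that direction. Among slow-fibre markers Tnnc1 had the largest step (64.6 and 231 CPM), and Myh7 went the other way (75.3 and 67.7 CPM). Plin1 of the adipocyte markers also went the other way (3 and 1 reads). The part of these shifts in the differences below was not tested. In bulk tissue, fewer cells of a type and less RNA per cell cannot be told apart.

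Members took 15767 reads (1.52% of gene reads, Wilson 95% interval 1.50 to 1.55) in replicate 1 and 30218 reads (2.20%, 2.17 to 2.22) in replicate 2. Slc25a4 alone held 76.7% of the members' reads in replicate 1 and 81.7% in replicate 2. Of the 50 members, 9 averaged at least 100 CPM, 13 lay between 10 and 100 CPM, 19 were below 10 CPM and 9 had no read in either library. Those 9 were Slc25a2, Slc25a13, Slc25a18, Slc25a24, Slc25a31, Slc25a41, Slc25a43, Slc25a48 and Slc25a54, and no member was called absent: their levels were under the limits above.

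**Figure D1:**
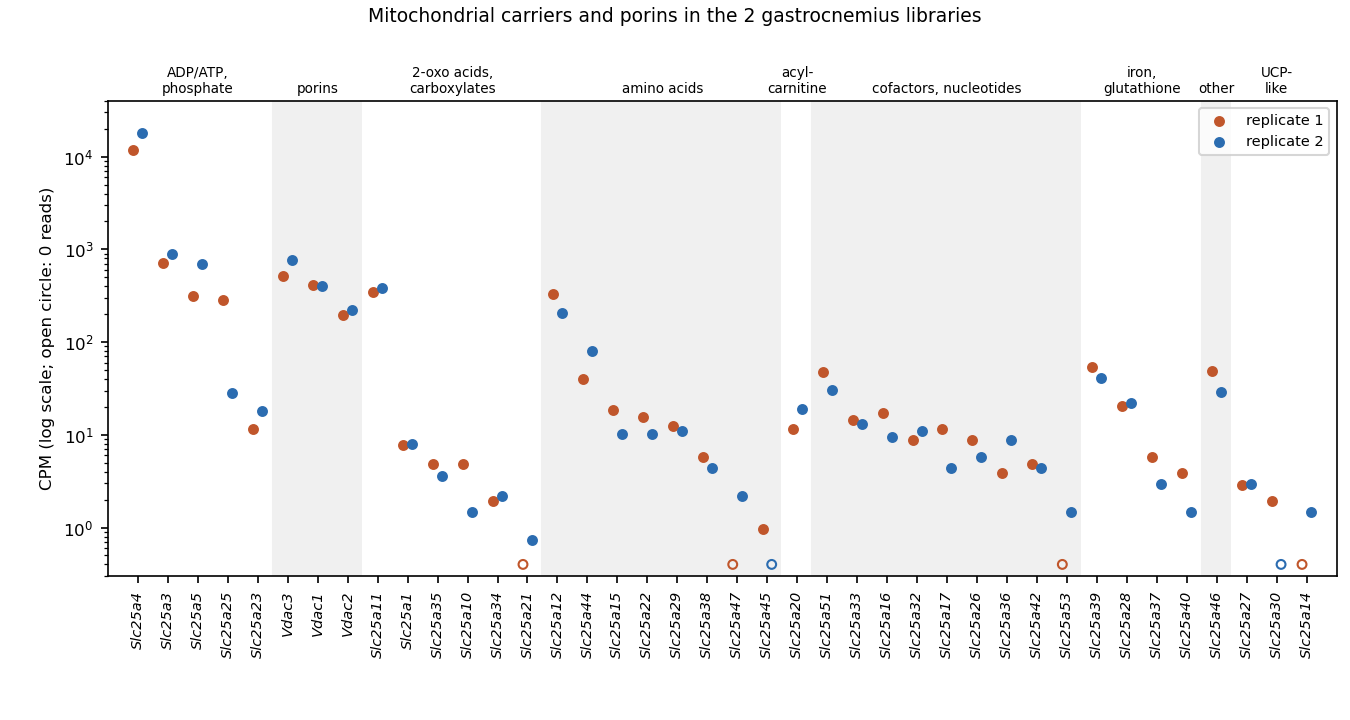
CPM of 40 members with reads in replicate 1 (left point of each pair) and replicate 2 (right point), on a log axis and ordered by role and mean level; open circles mark 0 reads. Slc25a4 stands above all other members in both libraries, and Slc25a25 shows the widest gap between the libraries among members above 100 CPM.

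Adenine nucleotide and phosphate carriers came first. Slc25a4 (ENSMUSG00000031633.4, chr8:46206797-46211284, minus strand) encodes the ADP/ATP carrier of heart and skeletal muscle. It had 12090 reads (11665 CPM) in replicate 1 and 24701 reads (17977 CPM) in replicate 2, a mean of 14821 ± 4463 CPM (SD, n = 2), and ranked 10th and 8th among all genes. Its 2 values lay apart by more than counting error, with a ratio of replicate 1 over replicate 2 of 0.649 (exact 95% interval 0.635 to 0.663), which is under the 2-fold threshold. Slc25a5 (chrX:36795651-36798807, plus strand), the ADP/ATP carrier of most dividing cells, had 323 reads (312 CPM) in replicate 1 and 961 reads (699 CPM) in replicate 2. Slc25a4 thus had 37.4 and 25.7 times the reads of Slc25a5, and 79.4 and 111 times in complete-type models alone. Scaled by transcript length, Slc25a4 averaged 7699 ± 2318 and Slc25a5 408 ± 221 CPM per kilobase (SD, n = 2). A long read stands for 1 transcript, so CPM need no length scaling in principle, and both scales are given. Slc25a31, the ADP/ATP carrier of the male germ line, had 0 reads.

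Slc25a3 (chr10:91116574-91124059, minus strand), which carries phosphate into the matrix, had 733 reads (707 CPM) in replicate 1 and 1231 reads (896 CPM) in replicate 2, a mean of 802 ± 133 CPM and 598 ± 99.5 CPM per kilobase. It was the second of the members on both scales. Its ratio of 0.789 (0.719 to 0.866) lay within 2-fold. Slc25a25, Slc25a23, Slc25a24 and Slc25a41 encode ATP-Mg/phosphate carriers, which change the amount of adenine nucleotide in the matrix. Slc25a25 had 293 reads (283 CPM) in replicate 1 and 39 reads (28.4 CPM) in replicate 2. Slc25a23 had 12 reads (11.6 CPM) in replicate 1 and 25 reads (18.2 CPM) in replicate 2, and the other 2 had none.

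The 3 porins had 1125 CPM in sum in replicate 1, against 1392 in replicate 2. Vdac3 had 533 reads (514 CPM) in replicate 1 and 1055 reads (768 CPM) in replicate 2. Vdac1 had 428 reads (413 CPM) in replicate 1 and 552 reads (402 CPM) in replicate 2. Vdac2 had 205 reads (198 CPM) in replicate 1 and 306 reads (223 CPM) in replicate 2. Vdac3 therefore gave 45.7% of porin reads in replicate 1 (42.9 to 48.6) and 55.1% in replicate 2 (52.9 to 57.4), and Vdac2 gave the smallest share, 17.6% and 16.0%. The order Vdac3, Vdac1, Vdac2 held in both libraries, in reads of all models and in complete-type models alone, where Vdac3 gave 49.7% and 58.5%. It held per kilobase as well, at 468 ± 131, 201 ± 3.92 and 108 ± 9.01 CPM per kilobase (SD, n = 2). The annotated pseudogene Vdac3-ps1 had 0 reads in replicate 1 and 1 read in replicate 2, and Slc25a5-ps had none. Slc25a4 had 10.4 times the reads of all porins together in replicate 1 and 12.9 times in replicate 2.

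Carboxylate and amino acid carriers of the malate-aspartate shuttle, which brings reducing equivalents of cytosolic NADH into the matrix, were the remaining members above 100 CPM. Slc25a11, the 2-oxoglutarate/malate carrier, had 359 reads (346 CPM) in replicate 1 and 525 reads (382 CPM) in replicate 2. Slc25a12, the aspartate/glutamate carrier of muscle and brain, had 343 reads (331 CPM) in replicate 1 and 286 reads (208 CPM) in replicate 2. Its liver counterpart Slc25a13 had 0 reads in both libraries, so Slc25a12 was at least 114-fold higher in replicate 1 and at least 95.3-fold higher in replicate 2 in reads, taking 3 reads per library as the floor. The leading Slc25a12 transcript has 6351 bases, and per kilobase Slc25a12 averaged 42.4 ± 13.7 CPM, under Vdac2 (108) and Slc25a25 (61.2 ± 70.8), both of which it exceeded in mean CPM. In replicate 2 alone Slc25a12 was under Vdac2 in CPM (208 against 223) and over Slc25a25 per kilobase (32.8 against 11.2). Slc25a11 averaged 213 ± 14.8 CPM per kilobase, over the 201 of Vdac1, though not in replicate 1 alone (202 against 204). In CPM their order was the opposite. In CPM, neighbours in the order from Slc25a3 to Vdac3 (641 ± 179), Slc25a5 (506 ± 274) and Vdac1 (407 ± 7.93) differed by less than the larger of their SDs, as did Slc25a12 (270 ± 86.8) and Vdac2 (210.2 ± 17.6), and Vdac2 and Slc25a25 (156 ± 180). The steps from Slc25a4 to Slc25a3, from Vdac1 to Slc25a11 (364 ± 25.2) and from Slc25a11 to Slc25a12 were larger than that.

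The other carriers were low. Slc25a44, which carries branched-chain amino acids, had 41 reads (39.6 CPM) in replicate 1 and 111 reads (80.8 CPM) in replicate 2. Among the other amino acid and ornithine carriers, Slc25a15, Slc25a22, Slc25a29 and Slc25a38 averaged 5.08 to 14.3 CPM. In the cofactor and nucleotide group, Slc25a51, the NAD+ carrier, had 49 reads in replicate 1 and 42 in replicate 2. Slc25a33, Slc25a16, Slc25a32, Slc25a17, Slc25a26, Slc25a36 and Slc25a42 averaged 4.60 to 13.8 CPM. All 4 iron and glutathione carriers had reads, led by the glutathione carrier Slc25a39 (56 reads in replicate 1, 57 in replicate 2) and followed by Slc25a28 (21 and 30), the mitoferrin of tissues other than the red cell line. Slc25a46, an outer-membrane protein of the family, had 50 reads in replicate 1 and 40 in replicate 2. Slc25a20, which moves acylcarnitines into the matrix for oxidation, had 12 reads in replicate 1 and 26 in replicate 2. Slc25a1, Slc25a35, Slc25a10, Slc25a34, Slc25a37, Slc25a40 and Slc25a27 had 2 to 11 reads in each library. Slc25a45 and Slc25a30 had reads in replicate 1 only (1 and 2), and Slc25a21, Slc25a14, Slc25a53 and Slc25a47 in replicate 2 only (1 to 3); none of these 6 exceeded 3 reads.

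Between the libraries, 31 members had at least 10 reads in sum and were tested, and 3 were called by the exact binomial test (called at 2-fold or more with a Benjamini-Hochberg adjusted p under 0.05). That is 9.68% of the tested members, beside 18.6% of the 8339 genes tested. In replicate 1, 1 member was called higher (12.9% of all genes) and in replicate 2, 2 members (5.76% of all genes). The median log2 ratio of replicate 1 over replicate 2 was 0.17 for the members and 0.28 for all tested genes. TMM scaling lowered every log2 ratio by 0.29, and the calls stayed at 1 higher in replicate 1 and 2 higher in replicate 2, while over all genes the share of calls that were higher in replicate 1 was 39.5% under TMM, 25.7% with DESeq2 size factors and 69.1% without either. In complete-type models alone, ratios were taken against each library's total of complete-type reads, and 24.0% of 6808 tested genes were called. Of 27 tested members, 2 were called higher in replicate 1 and 0 in replicate 2, with Slc25a12 (log2 ratio 1.09) called beside Slc25a25. Without the fold threshold, 7 of the 31 members passed in all models, beside 30.5% of all tested genes. They were the 3 called together with Slc25a4, Slc25a3 and Vdac3, which were higher in replicate 2, and Slc25a12, which was higher in replicate 1. The log2 ratios had a trend on the length of the leading complete-type model, at -0.72 for 598 bases (Slc25a23) and 0.55 for 6351 bases (Slc25a12). For Slc25a23, complete-type models held only 2 reads in each library, and its leading model of any class was an incomplete match of 1500 bases. With this trend removed, the all-model log2 ratio of Slc25a12 went from 0.67 to 0.12. When the spread was taken from edgeR's common dispersion over all genes instead of read counting alone, 0 members were called (1 at an unadjusted p under 0.05). That dispersion was estimated from these same 2 libraries taken as 1 group, so it includes the differences under test. It therefore cannot decide whether the calls exceed the spread between animals. The calls hold against counting error only.

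Slc25a25 had the largest ratio of the tested members. Its CPM were 9.96 times as high in replicate 1 as in replicate 2 (exact 95% interval 7.11 to 14.3), a log2 ratio of 3.30 with an adjusted p of 1.75e-64 by the exact binomial test. In complete-type models alone, 229 reads in replicate 1 stood against 25 in replicate 2, a log2 ratio of 3.40. With the trend on transcript length removed it was 2.79. Slc25a5 was called higher in replicate 2 (log2 ratio -1.16, adjusted p 1.71e-38 by the exact binomial test). This call rested on genomic models, with 207 reads in replicate 1 and 820 in replicate 2. In complete-type models, 114 reads in replicate 1 stood against 140 in replicate 2. The log2 ratio, taken against the totals of complete-type reads, was -0.06. Slc25a44 was called higher in replicate 2 (log2 ratio -1.02, adjusted p 0.000419 by the exact binomial test), and here the direction turned: 16 reads of complete-type models in replicate 1 stood against 10 in replicate 2, a log2 ratio of 0.88 with an adjusted p of 0.222.

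**Figure D2:**
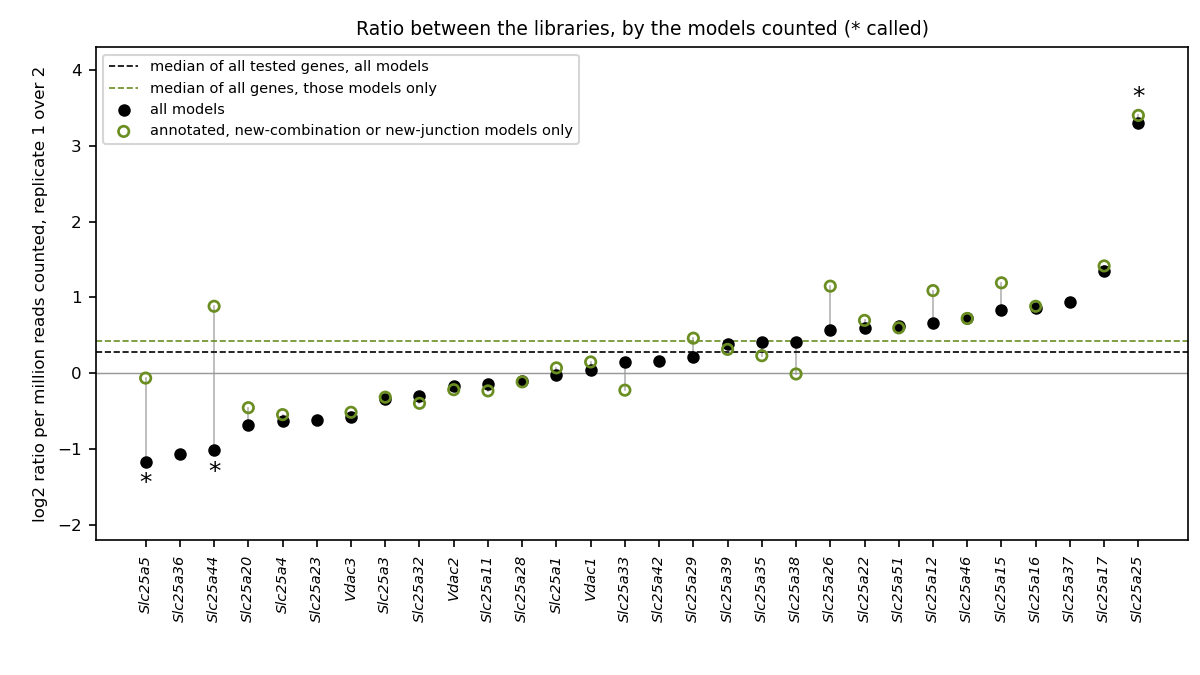
Log2 ratio of replicate 1 over replicate 2 for 30 of the tested members, in all models (filled) and, where these had at least 10 reads in sum, in complete-type models alone (open, relative to each library's complete-type reads). Dashed lines are the medians of all genes, 0.28 and 0.42. Slc25a25 lies above 3 in both countings, while Slc25a5 and Slc25a44 lie below -1 in all models and at -0.06 and 0.88 in complete-type models.

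The models behind these counts fall into classes. Reads in complete-type models made up 76.5% of the members' reads in replicate 1 and 63.1% in replicate 2, beside 85.5% and 75.7% over all genes. Incomplete matches, which hold only part of an annotated chain of exons, made up 21.2% and 32.6%, beside 11.0% and 16.1% over all genes, and without Slc25a4 they were 8.43% and 12.2%. Single-exon models held 21.5% of the members' reads in replicate 1 and 35.1% in replicate 2, and 12.2% and 30.3% without Slc25a4, beside 7.70% and 16.5% over all genes. Their share was higher in replicate 2 in each of the 10 members with at least 50 reads in each library, and in 81.9% of the 1834 genes of that depth. Most of these reads came from the last exon. For Slc25a4, a model of 824 bases confined to the last exon held 2944 reads in replicate 1 and 8942 in replicate 2, and the complete 4-exon Slc25a4-201 held 9033 and 15468. For Vdac1, a last-exon model of 966 bases held 78 reads in replicate 1 and 174 in replicate 2. For Vdac3, one of 528 bases held 1.31% of the reads in replicate 1 and 16.0% in replicate 2.

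Some members had reads in models listed as 1 or 2 bases long. In Slc25a5, 818 reads of replicate 2 were in a 1-base model at chrX:36798553, the first base of a 255-base model that held 207 reads in replicate 1. In Slc25a44, a 2-base model at the 3′ end of the gene (chr3:88410498-88410499) held 24 reads in replicate 1, against 101 in replicate 2. Slc25a11 had 41 reads of replicate 2 in a 1-base model at its 3′ end. Models under 50 bases held 31 member reads in replicate 1 (0.197%) and 967 in replicate 2 (3.20%), beside 0.607% and 2.28% of the reads of all genes. What such lengths stand for was not tested, and the reads were kept in gene counts.

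**Figure D3:**
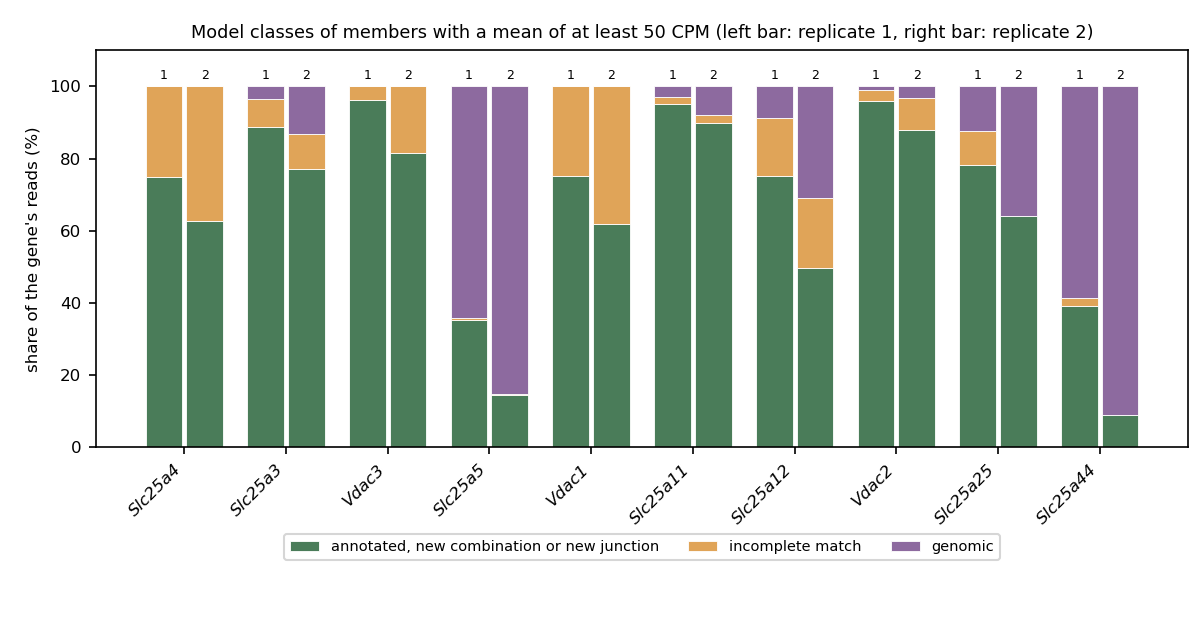
Share of each gene's reads by model class for 10 members with a mean of at least 50 CPM (left bar replicate 1, right bar replicate 2). The share of complete-type models was lower in replicate 2 in every one of them, down to 14.6% for Slc25a5 and 9.01% for Slc25a44.

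The share of a gene's reads in its leading model was compared in 10 members with at least 50 reads in each library. By Fisher's exact test, 6 shifted (by 10 percentage points or more, with a Benjamini-Hochberg adjusted p under 0.05), beside 30.5% of the 1834 genes tested. The share was lower in replicate 2 in 5 of them (20.0% of all genes) and higher in 1 (10.5% of all genes). Slc25a12-206 held 74.1% of Slc25a12 reads in replicate 1 and 47.2% in replicate 2 (adjusted p 7.54e-11, Fisher's exact test). The leading Vdac3 model held 88.0% and 73.6%, Vdac1-202 held 69.9% and 56.5%, Slc25a4-201 held 74.7% and 62.6%, and Slc25a3-206 held 82.4% and 70.6%. In the sixth, Slc25a5, the leading group was the genomic one, with 64.1% in replicate 1 and 85.3% in replicate 2. These shares count all models. Among complete-type models, which leave out incomplete matches and genomic models of any exon number, 0 of 10 members shifted, 0 had an unadjusted p under 0.05 by the same exact test, and 1.39% of all genes did shift. The leading model then holds nearly every read of some members, for Slc25a4 9033 of 9055 in replicate 1 and 15468 of 15519 in replicate 2, which leaves little room for a shift.

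Slc25a3 has a pair of mutually exclusive coding exons, 3A and 3B. Exon 3A is the form of heart and skeletal muscle and exon 3B that of other tissues. Both are shown here in full from the GENCODE M21 transcripts Slc25a3-206 and Slc25a3-201, because the choice between them is the splice result of this gene; capitals mark bases that differ in a global alignment.
Slc25a3 exon 3A: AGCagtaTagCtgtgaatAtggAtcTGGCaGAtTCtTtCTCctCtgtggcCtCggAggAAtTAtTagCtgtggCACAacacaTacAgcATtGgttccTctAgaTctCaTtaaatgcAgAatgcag
Slc25a3 exon 3B: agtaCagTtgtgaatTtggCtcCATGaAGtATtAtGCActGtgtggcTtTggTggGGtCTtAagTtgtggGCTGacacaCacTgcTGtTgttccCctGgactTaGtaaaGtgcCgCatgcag
Exon 3A (chr10:91122207-91122331, mm10, minus strand) has 125 bases and exon 3B (chr10:91121922-91122043) has 122, so they differ by 1 codon and leave the same reading frame. Of 121 aligned bases 80 were identical (66.1%). Each holds 1 copy of the carrier signature motif in frame (proline, any residue, aspartate or glutamate, a further pair of any residues, lysine or arginine), at bases 96 to 113 of exon 3A and 93 to 110 of exon 3B, counted from 1 at the 5′ end of the exon.

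Exon 3A was used in nearly all Slc25a3 reads that covered the choice. In replicate 1, 670 reads held exon 3A and 18 held exon 3B, which is 97.4% exon 3A (Wilson 95% interval 95.9 to 98.3). In replicate 2, 1003 reads held exon 3A and 19 held exon 3B, which is 98.1% (97.1 to 98.8). No read held both. The mean was 97.8% ± 0.535 (SD, n = 2), and the libraries were not told apart (difference -0.757 percentage points, Fisher's exact test p = 0.312). A further 12 reads in replicate 1 and 21 in replicate 2 had only 1 annotated end of an exon, and counting them gave a mean of 97.6%. The 33 reads of replicate 1 and 188 of replicate 2 that held neither were mostly last-exon models (24 and 163 reads in the largest).

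Vdac3 was read mostly in a model that the annotation does not list. This leading model has 9 exons and 1369 bases and held 469 reads in replicate 1 and 777 in replicate 2, against 32 and 55 reads in the annotated Vdac3-201. It differs from Vdac3-201 in the end of exon 3, the second coding exon, and in the length of the 3′ end. In Vdac3-201 exon 3 has 50 bases (chr8:22587553-22587602, minus strand) and 117 coding bases lie up to its end, which is a whole number of codons. In Vdac3-202, which had no read of its own, exon 3 has 53 bases. Both are shown because the difference lies at this splice site; capitals mark the bases that Vdac3-202 adds.
Vdac3-201 exon 3: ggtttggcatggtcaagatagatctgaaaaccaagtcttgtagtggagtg
Vdac3-202 exon 3: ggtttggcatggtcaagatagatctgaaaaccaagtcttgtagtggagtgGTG
In the leading model exon 3 runs 4 bases past the end of Vdac3-201, to 22587549, and so 1 base past that of Vdac3-202. It then has 54 bases, and 4 is not a multiple of 3.

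Of the Vdac3 reads that covered exon 3, 486 of 518 in replicate 1 had the 54-base form (93.8%, Wilson 95% interval 91.4 to 95.6) and 806 of 869 in replicate 2 (92.8%, 90.8 to 94.3). The 50-base form had 32 reads (6.18%) and 62 reads (7.13%). Fisher's exact test between the libraries gave p = 0.510. Mouse Vdac3 is known for a splice form of muscle, heart and brain that inserts a 3-base ATG exon after this one. No annotated Vdac3 transcript in M21 has a 3-base exon. In replicate 2, 4 reads had an exon between exons 3 and 4, and all 4 had the 50-base exon 3. The added exon had its 3′ end at position 22585687 in each, and in 1 of them it was 3 bases long. Whether reads of the 54-base form hold that exon was not tested, since the tables give model structures and not read sequences.

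**Figure D4:**
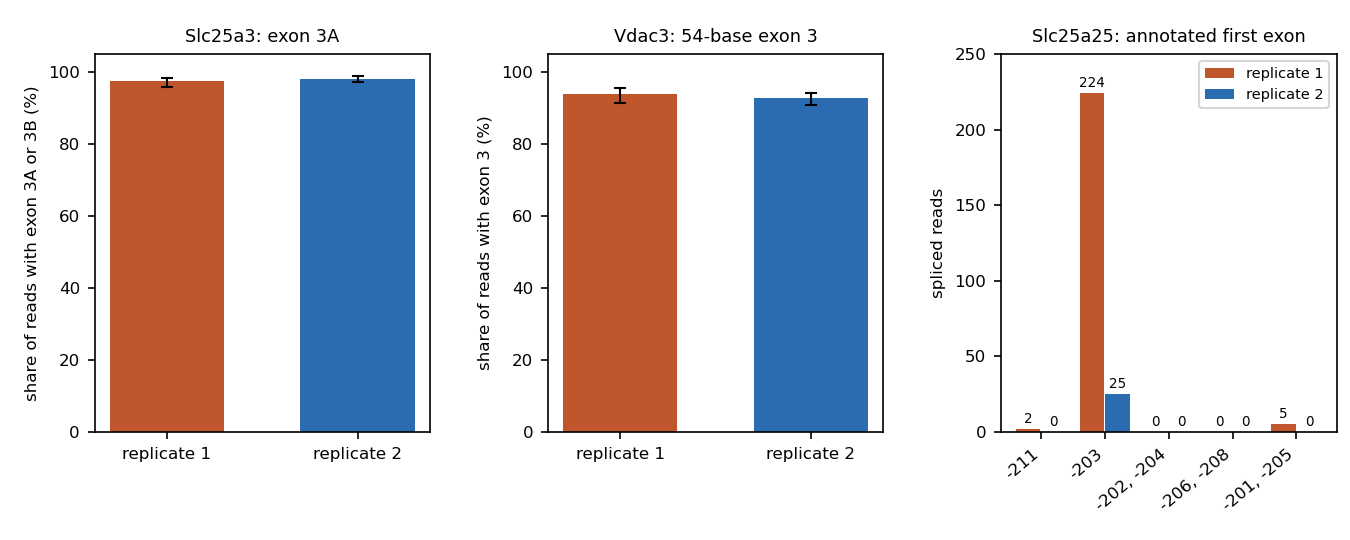
Left and middle: share of reads with exon 3A of Slc25a3 and with the 54-base exon 3 of Vdac3, with Wilson 95% intervals, in replicate 1 and replicate 2; right: Slc25a25 reads by annotated first exon. The intervals of both shares overlap between the libraries, while the Slc25a25-203 exon held 224 reads in replicate 1 and 25 in replicate 2.

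Slc25a25 has several annotated first exons spread over the gene (chr2:32414487-32451445, minus strand). The one of Slc25a25-203 (chr2:32423794-32424005), an inner start, was in 224 reads of replicate 1 and 25 of replicate 2. The outermost, of Slc25a25-201 and Slc25a25-205 (from 32451067), was in 5 and 0 reads, those of Slc25a25-202, Slc25a25-204, Slc25a25-206 and Slc25a25-208 in none, and the exon of Slc25a25-211 in 2 and 0. Genomic single-exon models held 36 reads in replicate 1 and 14 in replicate 2. The remainder of the 293 reads in replicate 1 was in spliced models with none of these first exons. The difference between the libraries thus lay mostly in transcripts from 1 start, and the nearest promoter of the RefSeq table is shown (GRCm38.p6, chr2:32424067-32424316, minus strand). It holds the 250 bases before a RefSeq start that lies 61 bases upstream of the Slc25a25-203 exon, with capitals on the letters TGACGTCA, the full cAMP response element.
Slc25a25 inner promoter: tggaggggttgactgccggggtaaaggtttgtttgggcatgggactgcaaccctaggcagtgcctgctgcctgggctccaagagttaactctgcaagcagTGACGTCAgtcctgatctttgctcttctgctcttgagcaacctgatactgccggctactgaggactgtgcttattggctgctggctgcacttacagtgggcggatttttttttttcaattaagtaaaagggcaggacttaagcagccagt
The element is its own reverse complement, and it was searched for after the sequence had been read. It occurred once here, ending 142 bases before the RefSeq start, and in 1 of 3 promoters listed for Slc25a25. Of 32544 promoter windows of 250 bases with distinct sequence, 506 hold it (1.55%). A match of letters is a description and no binding was measured.

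Genes that work with the carriers were taken from a fixed list of 36, of which 34 had reads and 28 were tested. By the exact binomial test 3 were called, beside 18.6% of all genes. All were higher in replicate 1 (12.9% of all genes) and none was higher in replicate 2 (5.76%). The list's median log2 ratio was 0.13, beside 0.28 for all tested genes. These calls and directions are those without TMM scaling, which adds -0.29 to every log2 ratio. Calls of the list under TMM are not given here. Ucp3, an uncoupling protein of muscle and a carrier by sequence, had 180 reads (174 CPM) in replicate 1 and 112 reads (81.5 CPM) in replicate 2, a log2 ratio of 1.09 (adjusted p 3.22e-09, exact binomial test). Mtch1, a carrier-like protein of the outer membrane, had 205 reads (198 CPM) in replicate 1 and 121 reads (88.1 CPM) in replicate 2, a log2 ratio of 1.16. Bcl2l1, a survival protein that binds porins, had 31 reads in replicate 1 and 16 in replicate 2. Mtch2, the paralog of Mtch1, had 136 and 210 reads and was not called.

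The mitochondrial pyruvate carrier, which is not of the Slc25 family, had levels like those of the porins: Mpc1 had 269 CPM in replicate 1 and 465 CPM in replicate 2, and Mpc2 had 332 CPM in replicate 1 and 604 CPM in replicate 2. Their log2 ratios of -0.79 and -0.86, without TMM scaling, were under the 2-fold threshold. Of 7 genes of the calcium uniporter only its small subunit gene Smdt1 averaged over 100 CPM, with 181 CPM in replicate 1 and 282 CPM in replicate 2, while the pore gene Mcu had 7 and 14 reads. Ckmt2, the creatine kinase of the intermembrane space that takes up ATP exported by the ADP/ATP carrier, had 1322 CPM in replicate 1 and 1736 CPM in replicate 2. The list for the import path of carriers into the inner membrane held 10 genes, including Samm50, which belongs to beta-barrel insertion instead. All 10 had reads and none was called without TMM scaling. Log2 ratios there ran from -0.97 (Timm10) to 0.93 (Agk). Tomm20 averaged 242 ± 73.5 CPM, and the beta-barrel insertion gene Samm50 had 96.5 CPM in replicate 1 and 170 CPM in replicate 2 (log2 ratio -0.82). In 5 sideroflexins the summed level was 25.1 CPM in replicate 1 and 24.0 CPM in replicate 2.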

How the data were processed

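The deposited tables give raw read counts per transcript model, 1 table per library; per the file headers the assembly is mm10 and the annotation GENCODE M21, and the deposited annotation files name TALON. The aligner is not given in the sources used here. A gene's count is the sum of its models, with spike-in models left out (3.71% of reads in replicate 1 and 2.44% in replicate 2). CPM divide by 1e6 reads in annotated genes. Log2 ratios and calls in complete-type models alone use each library's total of complete-type reads instead. Depth was 1106945 and 1514119 reads.

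The exact binomial test was two-sided, conditional on the library totals, and run on genes with 10 or more reads in sum, Benjamini-Hochberg adjusted over all of them, with 0.5 reads added for log2 ratios. Leading-model shares were compared by a two-sided Fisher's exact test where both libraries had 50 or more reads of the gene, with models matched by junction chain. With 1 library a side no quasi-likelihood fit was possible. Intervals are Wilson 95% for shares and exact binomial for ratios; they and the floors cover counting error only, since the tables hold no molecular identifiers. The replicates are separate samples by their labels. The exact binomial and Fisher tests were run on simulated counts that held counting error and no spread between animals, so this does not cover such spread. Alternatives used edgeR 4.0.16 and DESeq2 1.42.0 in R 4.3.3; other steps used scipy 1.17.1. Exon sequences come from GENCODE M21 transcripts.

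Named with values were members averaging at least 100 CPM, members called or with a shifted leading share, Slc25a3 and the Vdac genes, and listed partners averaging at least 100 CPM or called; lower members and partners beyond this rule were named after their values were seen. 1 member is counted in the totals and not reported here by name. Members and lists were chosen with earlier results of these data known.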

Additional observations from a re-analysis of the deposited data

Results flagged for a closer look

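Reads on the strand opposite a member, in loci that the tables class as antisense and that enter no gene count, exceeded 3 in each library for 6 members. These were Slc25a12 (5 reads in replicate 1, 48 in replicate 2), Slc25a46 (5 and 38), Vdac1 (15 and 27), Slc25a36 (8 and 24), Slc25a3 (4 and 7) and Slc25a16 (4 and 5). Vdac3 (3 and 32) and Slc25a20 (1 and 29) missed this cut in replicate 1. The share over all genes is not given here, so the count does not show whether members differ from other genes. For Slc25a36, among these 6, the antisense reads outnumbered its own, which were 4 in replicate 1 and 12 in replicate 2. Below the cut this was also seen in replicate 2, for example in Slc25a20 (29 against 26) and Slc25a37 (8 against 4). There were no control samples to set these against, and their source was not tested.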

How the results depend on the processing

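The summed level of the members was 15212 to 21992 CPM in single libraries, against a mean of 18602 CPM. It was 12753 CPM in complete-type models alone, which leave out incomplete matches and genomic models. The denominator there stayed at all reads in annotated genes, so this level could only fall. The count of 3 called members was 7 without the fold threshold, which adds members under 2-fold and passed 30.5% of all tested genes. It was 0 with the edgeR exact test at the common dispersion (5 genes called in all, 1 member at an unadjusted p under 0.05). That dispersion came from the same 2 libraries that were compared. The other alternatives gave 2 to 4, and they called 9.05% to 24.0% of all tested genes. DESeq2 size factors added Slc25a4, which split members 1 to 3 towards replicate 2, and put 25.7% of all calls higher in replicate 1. Complete-type models called Slc25a12 and Slc25a25 and split members 2 to 0 towards replicate 1, with 78.5% of all calls higher in replicate 1. Only Slc25a25 stayed called in the 6 alternatives other than edgeR, at log2 ratios of 2.79 to 3.40. Slc25a5 was lost in complete-type models (-0.06) and with the length trend removed (-0.90), and Slc25a44 reversed in complete-type models (0.88). The complete-type models also ended the shift of Vdac3, whose leading share then averaged 90.8% (Fisher's exact test p = 0.503), and left 0 of 10 members with a shifted share. The cause was not tested. The exon 3A share kept its value (97.6 to 97.8%) in all alternatives, 1 of which, counting exons with 1 annotated end, was chosen after seeing the data. Members under 10 reads in sum were tested only without the filter on low counts, where none of them was called. No paired analysis was possible because there is 1 group.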
